A study of Drosophila melanogaster with 12 samples.

Results

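Ovaries of Drosophila melanogaster females with RNA interference (RNAi) against Sxl were compared with ovaries that carry the bam mutation and no RNAi. The comparison rests on the 3 libraries titled Sxl RNAi female and the 3 titled Bam mutant female, 6 of the 12 libraries in the series, and on 9667 genes with enough reads to test out of 17559 counted. Sxl RNAi females were bam mutant females with RNAi against Sxl, mCherry RNAi females were bam mutant females with RNAi against mCherry, and bam females carried the bam mutation alone. All were virgin females of 1 to 3 days raised at 25 °C, and 3 biological replicates were dissected for each. The labels used here name neither the bam alleles nor the driver and construct of the RNAi. Because the bam ovaries carry no RNAi transgene, the knockdown and anything else that an RNAi cross brings with it cannot be told apart in this comparison. The 3 mCherry RNAi libraries are therefore given beside the members of the comparison, and they share libraries with it when set against either group.

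Sxl encodes an RNA-binding protein made in females that controls splicing and translation. In somatic cells it directs female splicing of tra and blocks the production of Msl-2, the protein that assembles the male dosage compensation complex on the X chromosome. In germ cells it is needed for female identity and for the exit of stem cell daughters from the stem cell state. The bam gene encodes the factor that starts germ cell differentiation, and ovaries without it fill with cells that resemble germline stem cells, among somatic escort, cap and follicle cells. RNA from whole ovaries mixes all of these, so fewer cells of a type and less RNA per cell cannot be told apart.

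Reads assigned to genes numbered 16570573, 23411755 and 17654077 in Sxl RNAi libraries and 20258167, 16517104 and 19116790 in bam libraries. Levels are given in CPM, counts per 1000000 assigned reads after scaling, in the order of replicates 1 to 3, with mean ± SD where stated. A log2 fold change is Sxl RNAi over bam and carries its standard error (SE). A gene rose or fell when the Benjamini-Hochberg adjusted p of the quasi-likelihood test in edgeR was under 0.05. Germ cell genes were present in every library, with hts, a component of the spectrosome, at 577 CPM on average in Sxl RNAi and 483 CPM in bam ovaries, while chorion genes of late egg chambers such as Cp36 stood at 1.04 CPM in Sxl RNAi and 1.79 CPM in bam ovaries.

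A library stood apart in each group. Genes of the gut and Malpighian tubule held 0.177% of the reads of Sxl RNAi replicate 1, against 0.0193% to 0.0277% in the other 5 libraries of the comparison. In that library the digestive trypsin alphaTry reached 533 CPM, while the other 5 lay between 1.40 and 4.06 CPM. In bam replicate 3, cytosolic ribosomal protein genes held 18.4% of the reads against 13.3% to 14.1% in the other 5, and antimicrobial and immune genes 0.156% against 0.0427% to 0.0601%. Long transcripts were also under-represented in bam replicate 3, where, of 5 equal length classes, the longest deviated from the mean of the 6 libraries by a median of -0.39 on the log2 scale and the shortest by 0.26. List counts below are given with all 6 libraries and, where they differ, without these 2 libraries, a setting chosen after the data were seen. With all 6 libraries, 3.44% of the 9667 genes tested rose and 2.53% fell, and list counts are to be read beside these shares. An unadjusted p under 0.05 was seen in 2129 of the 9667, and DESeq2 called 10.7% of its genes. In the fit of 4 libraries 10.6% of all genes rose and 10.1% fell, so list counts were mostly larger in it.

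**Figure D1:**
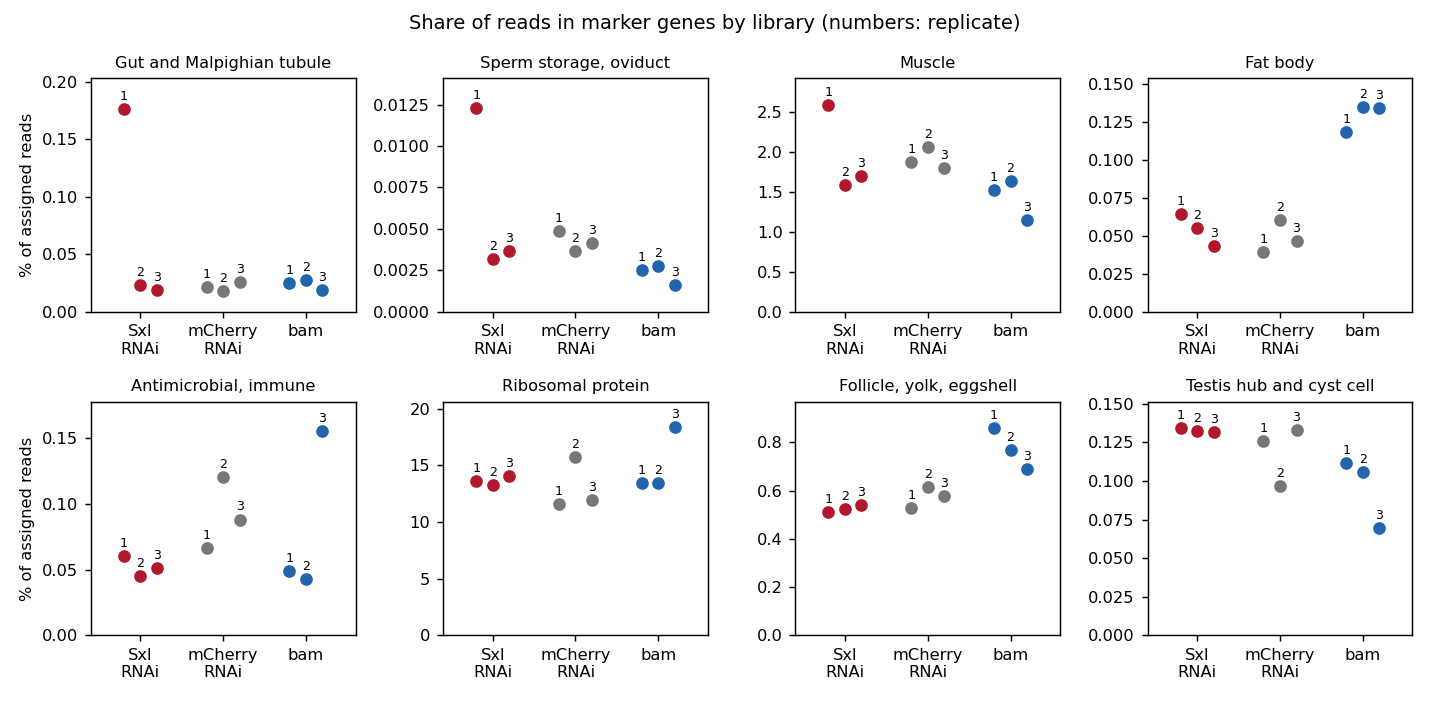
Share of assigned reads (%, vertical axis, from 0) in marker genes of other tissues, immune genes, ribosomal protein genes and ovarian or testis somatic genes, for each library of Sxl RNAi, mCherry RNAi and bam ovaries, with replicate numbers beside the points. Sxl RNAi replicate 1 is alone at 0.177% in gut genes, and bam replicate 3 is alone among the 6 libraries at 0.156% in immune genes and 18.4% in ribosomal protein genes.

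The targeted gene was lower in the knockdown. Sxl (FBgn0264270, X chromosome, 7074550 to 7098053, minus strand, BDGP6) stood at 141, 198 and 224 CPM in Sxl RNAi ovaries, at 501, 511 and 534 CPM in mCherry RNAi ovaries, and at 475, 463 and 377 CPM in bam ovaries. Every Sxl RNAi library lay below every library of both other groups. The log2 fold change against bam was -1.22 (SE 0.19, adjusted p = 0.0158), and over mCherry RNAi it was -1.44 (adjusted p = 0.0466). The call against bam was lost without bam replicate 1 (adjusted p = 0.0636), bam replicate 2 (adjusted p = 0.0656) or Sxl RNAi replicate 2 (adjusted p = 0.0548). The counts are per gene, so male and female splice forms of Sxl are summed in them.

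CG15930, also named Tdrd5l, encodes a Tudor-domain protein of the male germline, and among the ovaries its RNA was high in the Sxl knockdown alone. It stood at 226, 278 and 334 CPM in Sxl RNAi ovaries, at 13.5, 17.1 and 18.4 CPM in mCherry RNAi ovaries, and at 21.6, 29.3 and 23.6 CPM in bam ovaries. The lowest Sxl RNAi library lay far above the highest of the other 6, and the mCherry RNAi libraries lay below all 3 bam libraries. The gene (FBgn0029754, X chromosome, 5315130 to 5317295, minus strand) rose 11.3-fold, or by 3.50 on a log2 scale (SE 0.20, with an adjusted p of 0.000532), against bam, and by 4.11 (adjusted p = 0.000961) over mCherry RNAi. It passed the threshold under all 15 other settings, where the value lay between 3.35 and 3.64. In testes of bam males in the same series it stood at 395 to 489 CPM. Its end overlaps CG4198 on the other strand, a gene at 1.91 CPM on average in Sxl RNAi and 1.12 CPM in bam ovaries, and a kit that does not mark strand cannot separate reads there. Many genes named below also overlap a gene on the other strand, among them tra, CG31683, Ance-3, osk, exu, zuc, rec, spo and cn.

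With all 6 libraries, no other reported target of Sxl passed the threshold in edgeR. Phf7, a chromatin reader that promotes male germline fate, stood at 82.2, 117 and 115 CPM in Sxl RNAi ovaries, 69.0, 56.9 and 79.6 CPM in mCherry RNAi ovaries, and 66.8, 75.7 and 64.5 CPM in bam ovaries. The Sxl RNAi libraries did not overlap the bam libraries, but the log2 fold change of 0.61 (SE 0.16) had an adjusted p of 0.0711. Without the 2 libraries that stood apart it was 0.71 (SE 0.08, adjusted p = 0.000705). Phf7 also passed in DESeq2 (adjusted p = 0.0117) and without Sxl RNAi replicate 1 (adjusted p = 0.0268), but in no other fit that left out 1 library. The log2 fold change was 0.17 (SE 0.19, adjusted p = 0.658) for msl-2, whose mRNA Sxl keeps from translation, and -0.07 (SE 0.12, adjusted p = 0.791) for tra, the splicing factor downstream of Sxl. Of 7 reported targets tested, CG15930 alone rose and none fell in edgeR, beside 3.44% and 2.53% of all genes. DESeq2 called 2 of the 7, both higher, and 10.7% of all its genes. Without the 2 libraries 3 rose and 1 fell, against 10.6% and 10.1% of all genes in that fit.

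**Figure D2:**
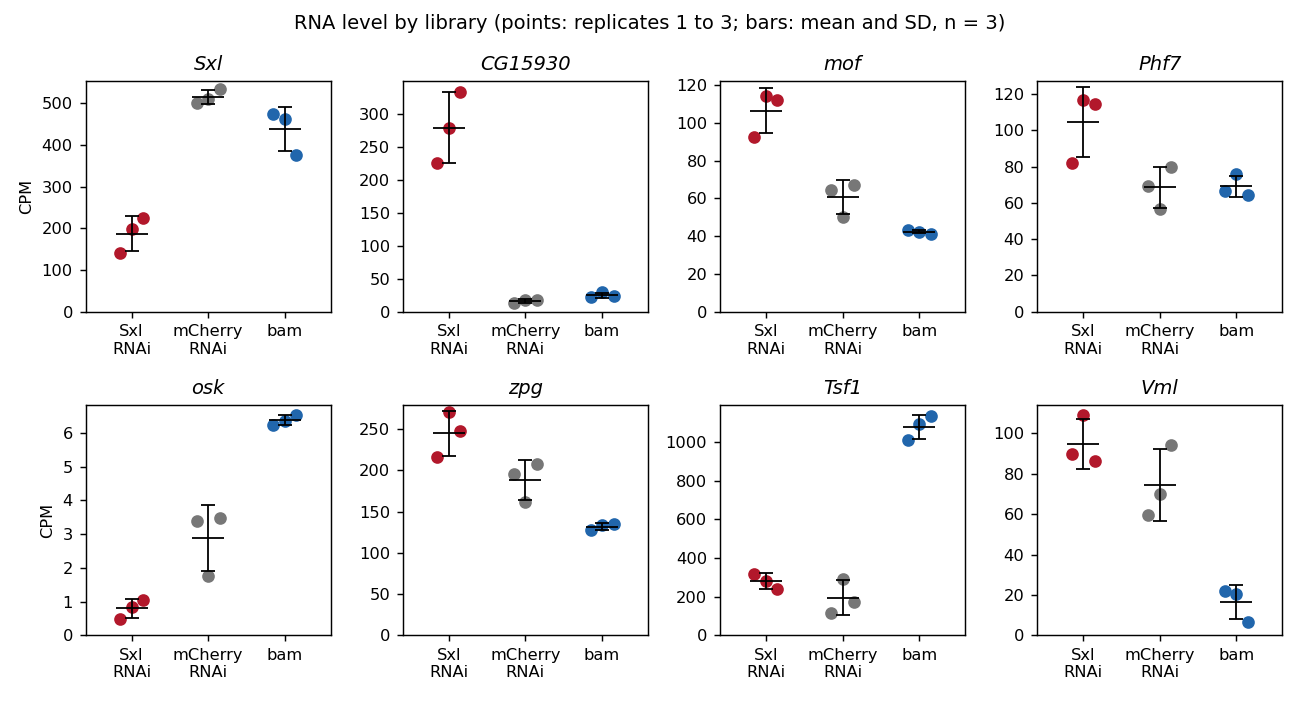
RNA level (CPM, vertical axis, from 0) of 8 genes in each library of Sxl RNAi, mCherry RNAi and bam ovaries; points are replicates, bars the mean and SD of 3. Among these ovary libraries CG15930 is high in Sxl RNAi alone (226 to 334 CPM), whereas for Tsf1 and Vml the mCherry RNAi libraries lie nearer to Sxl RNAi than to bam.

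With all 6 libraries, the genes that act around Sxl in sex determination showed no call. None of the 6 genes of the sex determination hierarchy, none of 15 splicing partners and m6A writers and readers of Sxl, and none of 3 female germline factors upstream of Sxl passed the threshold in edgeR. At an unadjusted p under 0.05 there was 1 gene in the hierarchy and 0 in the other lists, beside 2129 of all 9667 genes tested. DESeq2 called 0 in all 3, beside 10.7% of its genes. Without the 2 libraries that stood apart, dsx (adjusted p = 0.0232) and the partner Spf45 (adjusted p = 0.0131) passed with positive values, and the partner vir (adjusted p = 0.0146) and ovo (adjusted p = 0.0147) with negative values. With all 6, their median log2 fold changes were -0.08, -0.11 and -0.20, beside -0.01 over all genes tested. The largest value in the hierarchy was that of dsx, the last switch of somatic sex, with 62.4, 62.1 and 74.4 CPM in Sxl RNAi and 53.4, 46.3 and 30.7 CPM in bam ovaries (log2 fold change 0.62, SE 0.20, adjusted p = 0.133). It overlaps lds on the other strand, which stood at 143 CPM in Sxl RNAi and 156 CPM in bam ovaries. The germline regulators ovo and otu had log2 fold changes of -0.34 (adjusted p = 0.357) and 0.06 (adjusted p = 0.865). RNA counted for the bam gene itself stood at 6.84, 8.41 and 6.71 CPM in Sxl RNAi and 10.04, 9.11 and 9.90 CPM in bam ovaries (log2 fold change -0.39, SE 0.17, adjusted p = 0.233). Of 7 early male germline genes, CG15930 rose and the other 6, among them chinmo (-0.84) and tut (0.30), did not pass. DESeq2 called 2 of the 7, both higher. On 4 libraries, 3 of the 7 rose and 2 fell, against 10.6% and 10.1% of all genes in that fit.

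Of 9 genes of the male dosage compensation complex, 2 rose and none fell, beside 3.44% and 2.53% of all genes tested. Without the 2 libraries that stood apart 3 rose and 2 fell, against 10.6% and 10.1% of all genes in that fit. The acetyltransferase of the complex, mof (FBgn0014340, X chromosome, 5873840 to 5876853, minus strand), stood at 92.6, 114 and 112 CPM in Sxl RNAi ovaries, 64.3, 50.4 and 67.1 CPM in mCherry RNAi ovaries, and 43.0, 42.3 and 41.4 CPM in bam ovaries. The 3 groups did not overlap, with mCherry RNAi between the others. The log2 fold change of mof was 1.34 (SE 0.11, adjusted p = 0.00199), which held without any single library (adjusted p at most 0.0173). The value over mCherry RNAi was 0.83 (adjusted p = 0.113). The non-coding roX1 RNA of the complex was low throughout, at 1.80, 2.31 and 1.79 CPM in Sxl RNAi and 0.619, 0.647 and 0.963 CPM in bam ovaries. Its call (log2 fold change 1.41, SE 0.30, adjusted p = 0.0388) held without bam replicate 3 alone and was lost in the other 5 fits that left out a library (adjusted p 0.0690 to 0.160). Its end overlaps ec on the other strand, which stood at 69.5 CPM in Sxl RNAi and 69.2 CPM in bam ovaries. The complex's chromodomain subunit msl-3 had a log2 fold change of 0.43 (adjusted p = 0.0979) and its scaffold msl-1 one of -0.10.

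Across the genome, 578 of 9667 genes tested were called, or 5.98%. Of these, 333 rose (3.44%) and 245 fell (2.53%), and 2129 genes had an unadjusted p under 0.05. Changes of more than 2-fold made up 65.5% of the genes that rose and 63.3% of those that fell, and changes of more than 8-fold were seen in 34 and 30. Of the genes that rose, 64 averaged under 1 CPM in bam ovaries, and of those that fell, 66 averaged under 1 CPM in Sxl RNAi ovaries. The groups did not overlap in any called gene, but neither did they in 31.2% of all genes tested. In each of the 6 fits that left out a library, 84 of the 333 and 54 of the 245 kept their call, and 48 and 35 kept it in none. Counts fell to 113 higher and 77 lower without bam replicate 1, 103 and 77 without bam replicate 2, 215 and 163 without Sxl RNAi replicate 1, 189 and 90 without Sxl RNAi replicate 2, and 125 and 69 without Sxl RNAi replicate 3. Without bam replicate 3 they were 330 higher and 275 lower. DESeq2 called 1160 of 10825 genes (10.7%; 6.27% higher, 4.44% lower). Without the 2 libraries that stood apart, 1032 genes rose (10.6% of 9737) and 983 fell (10.1%), among them 322 of the 333 and 244 of the 245.

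The same test gave 607 calls among 9940 genes (6.11%; 376 or 3.78% higher, 231 or 2.32% lower) for mCherry RNAi over bam, and 21 among 10059 (0.209%; 12 or 0.119% higher, 9 or 0.0895% lower) for Sxl RNAi over mCherry RNAi. These comparisons share libraries with Sxl RNAi over bam, so their counts are not independent of it.

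**Figure D3:**
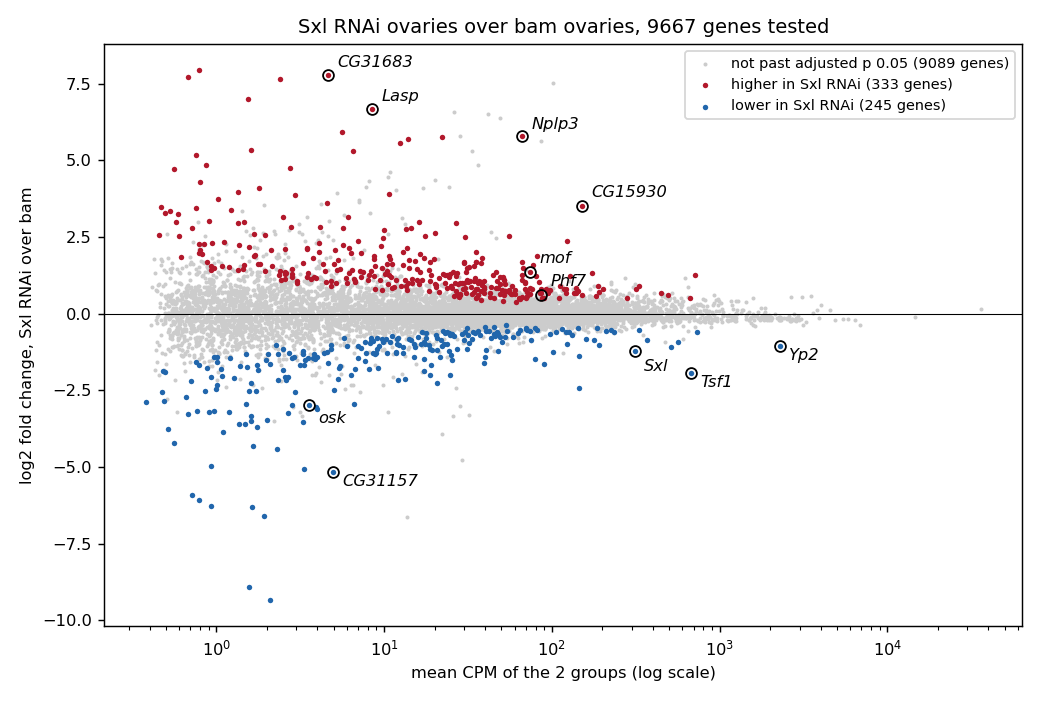
Log2 fold change of Sxl RNAi over bam ovaries (vertical axis) against the mean CPM of both groups (horizontal axis, log scale) for 9667 genes, with the 333 that rose in red, the 245 that fell in blue and named genes circled. CG15930 and Nplp3 stand out among abundant genes that rose, and Tsf1, Yp2 and Sxl among abundant genes that fell.

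The largest increases were taken from called genes with at least 5 CPM in the higher group. They were in genes expressed in both RNAi groups and far lower in bam ovaries. Below that level, CR44645 rose by 7.93 (adjusted p = 0.00999). Its means were 1.58 CPM in Sxl RNAi, 0.578 CPM in mCherry RNAi and 0 CPM in bam ovaries. Lasp, an actin-binding protein with a LIM and an SH3 domain, stood at 15.2, 19.0 and 16.3 CPM in Sxl RNAi ovaries, 17.0, 13.7 and 17.9 CPM in mCherry RNAi ovaries, and 0.143, 0.176 and 0.160 CPM in bam ovaries. Both RNAi groups overlapped each other, and the fitted level in Sxl RNAi was 103-fold that in bam. Its log2 fold change was 6.68 (SE 0.24, adjusted p = 5.14e-05) against bam and 0.07 (adjusted p = 0.919) over mCherry RNAi. CG43954, which shares the whole span of Lasp on the same strand, had 0 counts in both groups, and reads common to both genes cannot be assigned to either.

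CG31683 was as sharply divided, with 539 reads in the 3 Sxl RNAi libraries together and 2 in the 3 bam libraries. Its levels were 10.6, 8.17 and 8.95 CPM in Sxl RNAi, 9.67, 13.8 and 9.73 CPM in mCherry RNAi, and at most 0.0588 CPM in bam ovaries (adjusted p = 0.000755 against bam, 0.717 over mCherry RNAi). Nplp3, a neuropeptide-like precursor, stood at 177, 104 and 113 CPM in Sxl RNAi ovaries, 116, 133 and 107 CPM in mCherry RNAi ovaries, and 2.95, 2.23 and 1.93 CPM in bam ovaries. Here too the RNAi groups overlapped and bam stood far below both (log2 fold change against bam 5.79, SE 0.29, adjusted p = 0.000321).

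Dscam4, a cell adhesion protein of the immunoglobulin superfamily, had a log2 fold change of 5.76 (SE 0.29) against bam and 0.32 over mCherry RNAi. Syt4, a synaptotagmin of vesicle traffic, had 5.30 (SE 0.33) against bam and -0.59 over mCherry RNAi. CG7900, CG12522, Ance-3, CG8563 and CG43799 had values between 3.61 and 5.93 against bam and between -0.92 and 0.57 over mCherry RNAi. Each of these 7 genes kept its call without any single library and had an adjusted p of at least 0.309 over mCherry RNAi. Jhbp1, a juvenile hormone binding protein, rose by 3.88 (SE 0.66, adjusted p = 0.0192), a call kept without Sxl RNAi replicate 1 or 2 and lost without any of the other 4 libraries (adjusted p 0.0599 to 0.0845).

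Near-identical gene families were read as sums, because reads can be split differently among copies. The 6 Hsp70 genes, the major stress-induced chaperones, summed to 328, 64.7 and 43.6 CPM in Sxl RNAi ovaries and 252, 21.9 and 182 CPM in bam ovaries. These overlapped, although 1 copy passed the threshold. The Sdic genes, which encode a dynein intermediate chain, summed to 5.46, 6.79 and 5.43 CPM in Sxl RNAi and 5.95, 7.88 and 5.62 CPM in bam ovaries. The sums overlapped, while 2 copies were called higher and 1 lower.

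**Figure D4:**
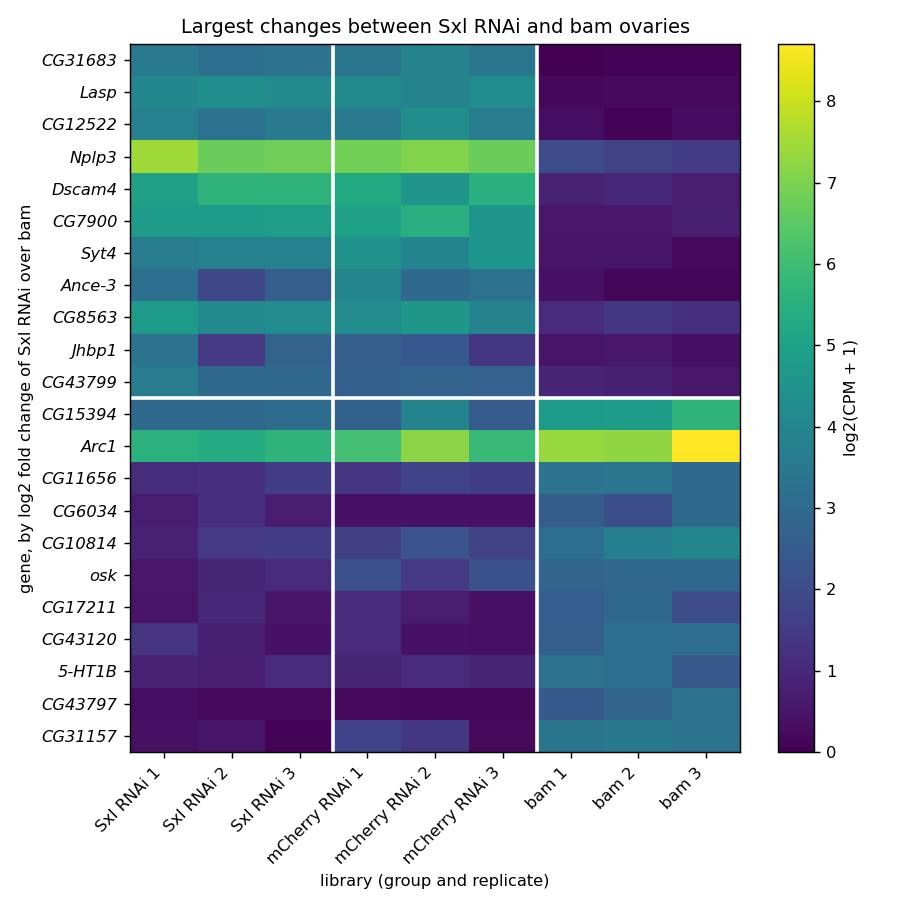
Level, as log2(CPM + 1) by colour, of 22 genes, by row, in the 9 ovary libraries, by column. Outside the Hsp70 and Sdic families, these had the largest changes among called genes with at least 5 CPM in the higher group. White lines divide groups and directions. In the upper rows the Sxl RNAi and mCherry RNAi columns are alike and the bam columns are far lower, and in the lower rows most genes are low in both RNAi groups.

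The largest decreases were likewise taken from called genes with at least 5 CPM in the higher group. In the 11 largest of these outside the Hsp70 and Sdic families, both RNAi groups lay below every bam library. Under that level, CG3397 fell by 9.33 (adjusted p = 0.00403), with 0 reads in Sxl RNAi and 232 in bam ovaries. For osk, CG10814 and Arc1 mCherry RNAi lay between the other groups, and for CG43797 and CG6034 it lay below Sxl RNAi. CG43797 stood at 0.240, 0.162 and 0.168 CPM in Sxl RNAi ovaries, 0.153, 0.128 and 0.130 CPM in mCherry RNAi ovaries, and 4.57, 6.12 and 8.72 CPM in bam ovaries (log2 fold change -5.05, SE 0.38, adjusted p = 0.00118). Both RNAi groups lay far below bam. CG31157 stood at 0.300, 0.404 and 0.0559 CPM in Sxl RNAi, 2.37, 1.66 and 0.174 CPM in mCherry RNAi, and 9.52, 10.5 and 8.93 CPM in bam ovaries (log2 fold change -5.15, SE 0.48, adjusted p = 0.00259). For this gene 2 of the 3 mCherry RNAi libraries lay between the other groups. The serotonin receptor 5-HT1B fell by 3.10 in log2 units (SE 0.38, adjusted p = 0.00709), with -0.19 over mCherry RNAi. Arc1, a retrotransposon-derived capsid protein that carries RNA at synapses, stood at 46.0, 39.6 and 49.6 CPM in Sxl RNAi, 68.6, 144 and 59.2 CPM in mCherry RNAi, and 163, 153 and 417 CPM in bam ovaries. Its call (log2 fold change -2.43, SE 0.40, adjusted p = 0.0180) was lost without any of the 3 Sxl RNAi libraries (adjusted p 0.0574 to 0.0760), and the value was -1.82 without the 2 libraries that stood apart. The other large decreases, in CG43120, CG17211, CG10814, CG6034, CG11656 and CG15394, lay between -3.05 and -2.26. Of these, CG43120 was not called without bam replicate 2 or Sxl RNAi replicate 2, CG17211 without bam replicate 1 or 2 or Sxl RNAi replicate 3, and CG6034 without bam replicate 1 or Sxl RNAi replicate 3 (adjusted p 0.0545 to 0.0727).

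Among genes of the oocyte and maternal program, 21 were tested, of which 4 fell and 1 rose, and their median log2 fold change was -0.17. With 4 libraries, 6 fell and 2 rose. Over all genes, 2.53% fell and 3.44% rose with 6 libraries, and 10.1% fell and 10.6% rose with 4. The posterior determinant osk (FBgn0003015, 3R, 8935126 to 8938395, plus strand) stood at 0.480, 0.849 and 1.06 CPM in Sxl RNAi ovaries, 3.40, 1.75 and 3.48 CPM in mCherry RNAi ovaries, and 6.24, 6.35 and 6.53 CPM in bam ovaries. The 3 groups did not overlap, with mCherry RNAi in the middle. Its level fell, with -2.97 in log2 units (SE 0.31) and an adjusted p of 0.00396, and the value over mCherry RNAi was -1.82 (adjusted p = 0.187). The bicoid mRNA localisation factor exu fell by 0.92 (SE 0.13, adjusted p = 0.0113), with 30.7, 37.2 and 36.2 CPM in Sxl RNAi, 54.6, 44.0 and 57.6 CPM in mCherry RNAi, and 76.2, 59.9 and 62.1 CPM in bam ovaries. Here as well mCherry RNAi lay between, without overlap, and the call was lost by a small margin without Sxl RNAi replicate 3 (adjusted p = 0.0502).

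Of the other oocyte genes called, plu, a regulator of the early embryonic cell cycle, fell by 1.06 (adjusted p = 0.0329), a call held without bam replicate 3 alone. The Polo inhibitor mtrm stood at 6.48, 5.74 and 4.59 CPM in Sxl RNAi ovaries, 2.06, 1.75 and 2.78 CPM in mCherry RNAi ovaries, and 9.43, 11.4 and 11.8 CPM in bam ovaries. Sxl RNAi lay between the other groups for this gene, which fell by 0.95 against bam (SE 0.20, adjusted p = 0.0378), a call held without Sxl RNAi replicate 1 alone. The EGF receptor ligand grk rose by 0.83 (SE 0.15, adjusted p = 0.0236) against bam, with 0.18 over mCherry RNAi, and its call held without bam replicate 3 or Sxl RNAi replicate 1 and in none of the other 4 such fits (adjusted p 0.0573 to 0.0956). It overlaps the far more abundant Akap200 on the other strand, at 894 CPM in Sxl RNAi and 847 CPM in bam ovaries. The anterior determinant bcd (-0.45), the RNA-binding protein orb (-0.15) and 14 further genes did not pass.

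Of 13 germ cell and stem cell RNA regulators, zpg alone passed, while 3.44% of all genes tested rose and 2.53% fell. The germline gap junction gene zpg (FBgn0024177, 3L, 6604366 to 6606032, minus strand) stood at 216, 271 and 248 CPM in Sxl RNAi ovaries, 196, 161 and 208 CPM in mCherry RNAi ovaries, and 127, 133 and 135 CPM in bam ovaries. The 3 groups did not overlap, with mCherry RNAi in the middle. The log2 fold change was 0.90 (SE 0.12, adjusted p = 0.0083), lost by a small margin without bam replicate 2 (adjusted p = 0.0504). The translational repressor pum (-0.48), bgcn, the partner of bam (-0.48), and mei-P26 (-0.26) did not pass. In the fit of 4 libraries 3 of the 13 rose and 4 fell, bgcn among the latter (-0.41, adjusted p = 0.00259). Of all genes in that fit, 10.6% rose and 10.1% fell. Summed reads of the list held 0.188% to 0.272% in Sxl RNAi and 0.180% to 0.278% in bam libraries, which overlapped.

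None of 28 piRNA pathway genes passed in edgeR, whereas 10 had an unadjusted p under 0.05 (2 higher, 8 lower) and DESeq2 called 6 (1 higher, 5 lower). Over all genes, 2129 of 9667 had an unadjusted p under 0.05, and DESeq2 called 10.7%. The piRNA genes silence transposons in the germline and adjoining soma. Their median log2 fold change was -0.18. The endonuclease zuc came nearest, with 21.6, 26.3 and 26.4 CPM in Sxl RNAi and 36.7, 34.1 and 35.8 CPM in bam ovaries (-0.51, SE 0.12, adjusted p = 0.0501), and piwi had -0.26 (adjusted p = 0.308). Among 16 Tudor-domain genes, CG15930 rose and the other 15 did not pass, of which 14 had a negative value. Without the 2 libraries that stood apart, 4 piRNA genes rose and 10 fell, and 6 Tudor-domain genes fell, against 10.6% and 10.1% of all genes in that fit.

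Some replication and recombination genes fell, and most had negative values. Over all genes tested, 2.53% fell with all 6 libraries. Of 24 cell cycle and replication genes, 2 fell, none rose, and 23 had a negative value, with a median of -0.24. The 2 were helicase subunits: Mcm5 had 172, 196 and 182 CPM in Sxl RNAi and 266, 257 and 285 CPM in bam ovaries (-0.55, SE 0.11, adjusted p = 0.0310), and Mcm2 had -0.46 (SE 0.11, adjusted p = 0.0496). Mcm5 held without bam replicate 3 alone, and Mcm2 in none of the fits that left out a library (adjusted p 0.0510 to 0.185). Without the 2 libraries that stood apart, 10 of the 24 fell, against 10.1% of all genes in that fit. Of 16 genes of the synaptonemal complex and recombination, the crossover factors hdm (-1.01, SE 0.15, adjusted p = 0.0125) and rec (-0.56, SE 0.10, adjusted p = 0.0246) fell. For hdm the level was 10.8, 11.4 and 12.4 CPM in Sxl RNAi, 12.4, 10.5 and 11.6 CPM in mCherry RNAi, and 21.1, 21.2 and 27.7 CPM in bam ovaries. Levels in both RNAi groups overlapped below bam. Leaving out Sxl RNAi replicate 2 or 3 ended the call of hdm (adjusted p 0.0528 and 0.0516), and that of rec held without bam replicate 3 alone. With 4 libraries, 4 of the 16 fell, against 10.1% of all genes.

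Of 9 subunits of the anaphase-promoting complex, APC7 rose and ida fell, while 3.44% of all genes tested rose and 2.53% fell. APC7 is unlike most genes called here: it stood at 14.3, 17.3 and 17.6 CPM in Sxl RNAi ovaries, 4.16, 3.84 and 4.52 CPM in mCherry RNAi ovaries, and 9.43, 7.17 and 10.1 CPM in bam ovaries. Sxl RNAi was highest, mCherry RNAi lowest, and no groups overlapped. The log2 fold change was 0.89 (SE 0.18, adjusted p = 0.0325) against bam and 1.99 (adjusted p = 0.00809) over mCherry RNAi. The call against bam held without bam replicate 3 or Sxl RNAi replicate 1 and was lost without any of the other 4 (adjusted p 0.0982 to 0.124). For ida (-0.45, adjusted p = 0.0468) it held in none of those fits (adjusted p 0.0596 to 0.184).

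**Figure D5:**
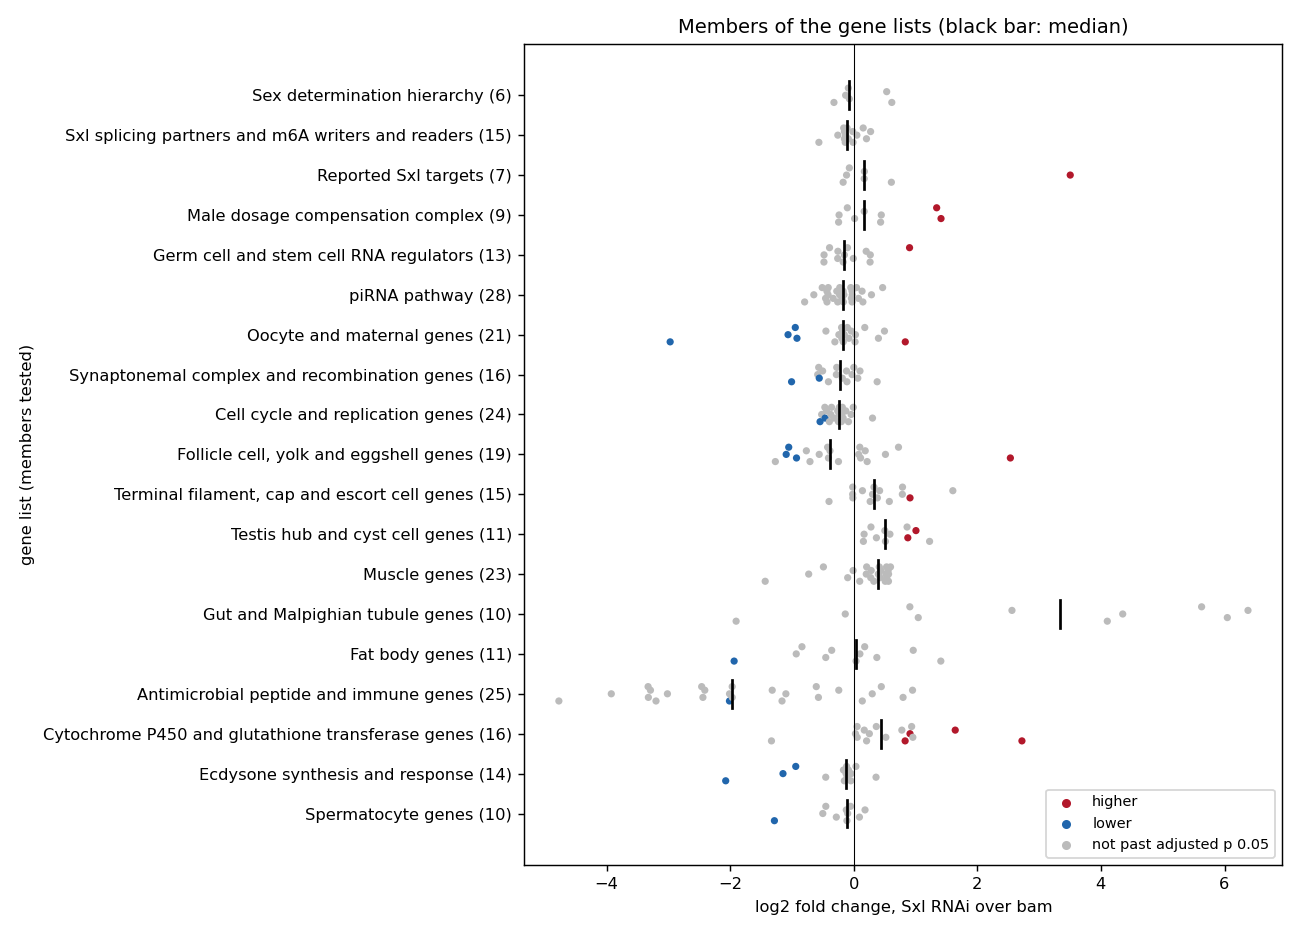
Log2 fold change of Sxl RNAi over bam ovaries (horizontal axis) for the tested members of 19 gene lists (rows, with the number tested), with genes that rose in red, genes that fell in blue, others in grey and the median as a black bar. Gut and immune genes spread widely, most other lists centre near 0, and all 11 hub and cyst cell genes lie right of 0.

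Somatic gonad genes gave calls in both directions. Of 19 follicle cell, yolk and eggshell genes, 3 fell and 1 rose, with a median of -0.38, and without the 2 libraries that stood apart 5 of 20 fell and 2 rose. Over all genes, 2.53% fell and 3.44% rose with 6 libraries, and 10.1% fell and 10.6% rose without those 2. The yolk protein Yp2 stood at 1461, 1410 and 1608 CPM in Sxl RNAi ovaries, 1736, 2054 and 1820 CPM in mCherry RNAi ovaries, and 3533, 2965 and 2848 CPM in bam ovaries. The groups did not overlap, and mCherry RNAi lay between. Yp2 fell by 1.05 (SE 0.14, adjusted p = 0.00867), without exception when a library was left out. Its neighbour Yp1 fell by 0.93 (SE 0.12, adjusted p = 0.0083), a call lost without Sxl RNAi replicate 3 (adjusted p = 0.0528). The eggshell gene Vm34Ca fell by 1.09 (SE 0.20, adjusted p = 0.0244), a call that held without Sxl RNAi replicate 1 and was lost without any of the other 5 libraries (adjusted p 0.0504 to 0.0877).

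Vml, a vitelline membrane-like protein, went the other way. It stood at 89.6, 109 and 86.2 CPM in Sxl RNAi ovaries, 59.7, 69.7 and 94.3 CPM in mCherry RNAi ovaries, and 22.1, 20.6 and 6.63 CPM in bam ovaries. Sxl RNAi and mCherry RNAi overlapped well above bam. It rose by 2.53 (SE 0.42, adjusted p = 0.0204), which held without bam replicate 3 or Sxl RNAi replicate 1 and was lost without any of the other 4 (adjusted p 0.0623 to 0.0740). The list as a whole held 0.509%, 0.522% and 0.542% of reads in Sxl RNAi, 0.530%, 0.614% and 0.576% in mCherry RNAi, and 0.861%, 0.768% and 0.690% in bam libraries. Sxl RNAi and bam did not overlap in this share (exact permutation test, two-sided, p = 0.1, the smallest that 3 against 3 allows).

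Of 15 terminal filament, cap and escort cell genes, GstS1 rose, none fell, and the median was 0.33. Over 4 libraries, 3 rose, 1 fell, and the median was 0.12. For this and the next lists, 3.44% of all genes rose and 2.53% fell with 6 libraries, and 10.6% and 10.1% with 4. GstS1, a glutathione transferase also found in flight muscle, stood at 475, 419 and 403 CPM in Sxl RNAi, 473, 405 and 495 CPM in mCherry RNAi, and 248, 232 and 214 CPM in bam ovaries. Again both RNAi groups overlapped above bam (log2 fold change 0.91, SE 0.12, adjusted p = 0.0087, and 0.0504 without bam replicate 2). Of 11 testis hub and cyst cell genes, which include genes that ovarian somatic cells also use, 2 rose and all 11 had a positive value, with a median of 0.51. The ligand Wnt2 stood at 56.8, 44.2 and 44.5 CPM in Sxl RNAi, 48.6, 44.9 and 53.9 CPM in mCherry RNAi, and 26.6, 25.2 and 21.2 CPM in bam ovaries. Sxl RNAi overlapped mCherry RNAi and stood 2.01-fold above bam (log2 fold change 1.01, SE 0.15, adjusted p = 0.0114, and 0.0525 without bam replicate 2). The homeodomain gene so rose by 0.87 (SE 0.20, adjusted p = 0.0463), a call lost when any library was left out (adjusted p 0.0589 to 0.142). The JAK-STAT ligand upd1, which the hub secretes, had 1.38, 3.07 and 1.90 CPM in Sxl RNAi and 1.14, 1.12 and 0.481 CPM in bam ovaries (1.23, adjusted p = 0.16). Without the 2 libraries that stood apart, 5 of the 11 hub and cyst cell genes rose, against 10.6% of all genes in that fit, and their median was 0.34. None of 13 JAK-STAT pathway genes passed in edgeR or DESeq2. Of the 13, 4 had an unadjusted p under 0.05, all with positive values, beside 2129 of all 9667 genes tested. Without the 2 libraries 2 JAK-STAT genes rose and 1 fell. Of 12 BMP pathway genes the receptor wit rose by 0.64 (adjusted p = 0.0316, held without bam replicate 3 alone), and without both libraries 2 rose and 2 fell. The wit gene, at 33.1 CPM in Sxl RNAi and 21.4 CPM in bam ovaries, overlaps CG32259 and dib on the other strand. Reads of unstranded libraries cannot be told apart there. CG32259 itself rose, with 11.7 CPM in Sxl RNAi and 2.30 CPM in bam ovaries (log2 fold change 2.36, adjusted p = 0.00227). The levels of dib were 0.969 and 4.19 CPM.

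Genes of later male germ cells gave 1 call. Of 10 spermatocyte genes tested, the meiotic arrest gene topi fell, with 4.92, 7.04 and 6.21 CPM in Sxl RNAi, 13.0, 5.80 and 14.5 CPM in mCherry RNAi, and 18.6, 15.8 and 10.3 CPM in bam ovaries. Its change of -1.28 in log2 units (SE 0.26, adjusted p = 0.0340) kept its call without bam replicate 3 alone. Of 19 spermatid and sperm genes 2 had enough reads to test and neither passed, with 0 at an unadjusted p under 0.05 and 0 in DESeq2, and none of 12 Y-linked genes had enough reads to test. The spermatid list held at most 0.000368% of reads in Sxl RNAi and 0.000390% in bam libraries. The testis-biased thioredoxin TrxT stood at 3.30, 2.63 and 2.46 CPM in Sxl RNAi, 0.879, 1.28 and 0.913 CPM in mCherry RNAi, and 1.05, 1.23 and 0.963 CPM in bam ovaries. All 3 Sxl RNAi libraries lay above 2 CPM and the other 6 below it, and the log2 fold change was 1.38 (SE 0.26, adjusted p = 0.0260), lost when any library was left out (adjusted p 0.0564 to 0.111). It was the 1 gene called of 4 in the thioredoxin system, and its neighbour dhd had 0.50 (adjusted p = 0.17).

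Some enzymes of steroid and foreign-compound metabolism were called. Of 14 genes of ecdysone synthesis and response, 3 fell and none rose, all cytochrome P450 enzymes that build the hormone. For spo the level was 8.81, 13.9 and 11.97 CPM in Sxl RNAi, 9.97, 11.2 and 10.8 CPM in mCherry RNAi, and 25.8, 24.7 and 26.9 CPM in bam ovaries. Both RNAi groups overlapped below bam, and the log2 fold change was -1.15 (SE 0.18, adjusted p = 0.0147). The values were -2.07 (adjusted p = 0.0230) for dib and -0.94 (adjusted p = 0.0327) for shd. When a library was left out, the call of spo was lost without bam replicate 1, bam replicate 2 or Sxl RNAi replicate 3 (adjusted p 0.0554 to 0.0612), that of dib held without Sxl RNAi replicate 2 alone, and that of shd in no such fit. Over the 4 libraries, 4 of the 14 fell. Among all genes 2.53% fell with 6 libraries and 10.1% with 4.

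Of 16 cytochrome P450 and glutathione transferase genes of detoxification, 4 rose, none fell, and 15 had a positive value, with a median of 0.44. Using 4 libraries, 5 rose and the median was 0.19. Among all genes 3.44% rose with 6 libraries and 10.6% with 4. Cyp6a2 stood at 27.3, 14.1 and 10.9 CPM in Sxl RNAi, 10.1, 14.7 and 8.34 CPM in mCherry RNAi, and 2.71, 2.41 and 2.84 CPM in bam ovaries. Sxl RNAi and mCherry RNAi overlapped above bam, and the rise of 2.72 (SE 0.36, adjusted p = 0.00846) held without any single library. The others that rose were Cyp6a20 (1.64, SE 0.31, adjusted p = 0.0260), GstE1 (0.83, SE 0.19, adjusted p = 0.0464) and GstS1. Cyp6a20 was not called without bam replicate 1 or 2 or Sxl RNAi replicate 3 (adjusted p 0.0593 to 0.113), and GstE1 was not called when any library was left out (adjusted p 0.0572 to 0.140). Cyp6a2 was highest in Sxl RNAi replicate 1, the library with gut RNA, and whether that RNA contributed was not tested.

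Tsf1, the iron carrier transferrin, was among the abundant genes that fell. It stood at 320, 281 and 238 CPM in Sxl RNAi ovaries, 117, 293 and 172 CPM in mCherry RNAi ovaries, and 1009, 1093 and 1132 CPM in bam ovaries. Both RNAi groups lay far below bam and overlapped, and the log2 fold change of -1.94 (SE 0.15, adjusted p = 0.00118) held without any single library. It was the 1 gene called of 11 fat body genes, whose median was 0.04. Inos, which makes inositol phosphate and is among the genes with the largest differences in CPM, a scale that is not per length, stood at 1447, 713 and 863 CPM in Sxl RNAi, 897, 1103 and 687 CPM in mCherry RNAi, and 419, 437 and 427 CPM in bam ovaries. Here Sxl RNAi and mCherry RNAi overlapped above bam (1.25, SE 0.26, adjusted p = 0.0352). Its call held without Sxl RNAi replicate 1 or 2 and was lost without any of the other 4 (adjusted p 0.0752 to 0.120). The calponin-like Chd64 (0.52), the stathmin stai (0.69) and CG8036 (0.60) also rose, and mfas, a fasciclin, fell by 0.60. Their calls held without bam replicate 3 and, for stai, without Sxl RNAi replicate 1, and were lost in the other fits without a library (adjusted p at most 0.163). Of these, stai was at 490, 585 and 580 CPM in Sxl RNAi, 352, 393 and 361 CPM in mCherry RNAi, and 333, 337 and 366 CPM in bam ovaries, with mCherry RNAi at the bam level.

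Lists of other tissues and of immunity gave few calls with all 6 libraries. For scale, 2129 of all 9667 genes tested had an unadjusted p under 0.05, and DESeq2 called 10.7% of its genes. In the fit of 4 libraries, 10.6% of all genes rose and 10.1% fell. None of 10 gut genes passed in edgeR or DESeq2, and 2 had an unadjusted p under 0.05. Their median was 3.33, and without the 2 libraries it was -0.24, with 1 of 9 lower. None of 3 sperm storage organ and oviduct genes passed in edgeR, with 1 at an unadjusted p under 0.05 and 1 in DESeq2. With 4 libraries, 1 of 2 tested rose. Of these genes, Send1 had 23.9, 0.283 and 0.783 CPM in Sxl RNAi and 0.904, 0.412 and 1.71 CPM in bam ovaries. Of 25 antimicrobial and immune genes, 1 fell, with a median of -1.97 over all 6 libraries and -0.05 without the 2, where 4 rose and 2 fell. The antimicrobial peptide Dro stood at 9.83, 3.76 and 4.25 CPM in Sxl RNAi and 19.8, 5.06 and 150 CPM in bam ovaries, with bam replicate 3 far above the other 5 (adjusted p = 0.234). The gene that fell, PGRP-LB, an amidase that dampens immune signalling, had -2.01 (SE 0.38, adjusted p = 0.0280), lost without bam replicate 1 or Sxl RNAi replicate 2 or 3 (adjusted p 0.0739 to 0.116). None of 23 muscle genes passed in edgeR (median 0.40), with 4 at an unadjusted p under 0.05 and 1 in DESeq2. None of 12 hemocyte genes did either (median 0.17), with 2 and 1 by those measures. Among muscle genes 3 rose and 2 fell without the 2 libraries, and 3 hemocyte genes fell. Of 7 neural genes nSyb, a vesicle synaptobrevin, had 1.44 (adjusted p = 0.0428), lost when any library was left out (adjusted p 0.0794 to 0.151), and without the 2 libraries 2 neural genes fell and none rose. Markers of muscle held 2.58%, 1.59% and 1.69% of reads in Sxl RNAi and 1.52%, 1.64% and 1.15% in bam libraries, and their part in genes shared with muscle, such as GstS1, was not tested.

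Few housekeeping genes passed. None of 83 cytosolic and 70 mitochondrial ribosomal protein genes passed in edgeR, with medians of -0.15 and -0.10. At an unadjusted p under 0.05 there were 2 and 4 of them, and DESeq2 called 1 and 0. By those measures there were 2129 of all 9667 genes tested, and 10.7% of the genes in DESeq2. Without bam replicate 3, the library high in ribosomal protein reads, and Sxl RNAi replicate 1, the medians were of the other sign, at 0.05 for both lists. In that fit 3 cytosolic genes rose and 1 fell, and 2 mitochondrial genes rose and 1 fell. Of all genes in that fit, to which the counts of 4 libraries below also belong, 10.6% rose and 10.1% fell. Of 37 proteasome genes the testis-type subunit gene Prosbeta2R2 alone fell (-1.31, SE 0.25, adjusted p = 0.0287, held without Sxl RNAi replicate 1 alone), and without the 2 libraries 3 proteasome genes rose and 1 fell. None of 8 genes of the siRNA and miRNA machinery, of 15 heat shock genes or the 1 accessory gland gene with enough reads to test passed in edgeR, with 0 at an unadjusted p under 0.05 and 0 in DESeq2. In the fit of 4 libraries 2 of the siRNA and miRNA genes fell and 1 of 14 heat shock genes rose. Outside the heat shock list, Hsc70-2 fell with all 6 libraries (log2 fold change -1.60, SE 0.22, adjusted p = 0.0096), and 1 Hsp70 copy was called, as given above. Of 9 genes used as visible markers in fly stocks, cn, an enzyme of brown eye pigment, fell, with 0.480, 0.526 and 0.336 CPM in Sxl RNAi, 1.87, 0.854 and 0.956 CPM in mCherry RNAi, and 2.71, 2.82 and 2.46 CPM in bam ovaries. The groups did not overlap, and the decrease of 2.54 (SE 0.29, adjusted p = 0.00527) held without any single library. With 4 libraries, 1 of 8 such genes rose and 1 fell.

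By position, 80 of 1662 genes tested on the X chromosome rose (4.81%) and 46 fell (2.77%), beside 3.44% and 2.53% over all. The other arms had between 1.71% higher (3R, 39 of 2282) and 4.71% higher (chromosome 4, 4 of 85), with 3.92% on 3L (71 of 1811). Across windows of 2 Mb on the X, the share that rose ran between 2.98% and 7.06%. Called genes had called neighbours more often than other genes did: 61 of 327 genes that rose and had a position (18.7%) adjoined another tested gene that rose, against 6.29% of genes that had not risen, and 54 of 239 that fell (22.6%) adjoined another that fell, against 4.42%. These shares are a description and were not tested.

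In 10 places at least 3 adjoining tested genes moved the same way. On 2R, between 7040136 and 7051964, the tetraspanins Tsp42Ej, Tsp42Ek, Tsp42El and lbm rose by 1.27, 1.32, 1.22 and 1.37, with values over mCherry RNAi of -0.13, -0.33, -0.27 and -0.01. Near the centromere of the same arm, between 1211067 and 1443935, CR40190, CG40191, Yeti, CR44042 and l(2)41Ab fell, with log2 fold changes between -1.29 and -0.93. Yeti stood at 119, 124 and 130 CPM in Sxl RNAi, 104, 152 and 111 CPM in mCherry RNAi, and 229, 232 and 313 CPM in bam ovaries, so that both RNAi groups lay together below bam. On the X chromosome, between 2919770 and 2946589, CG3588, CG32793, CG14421 and CG14423 fell. For CG3588 the level was 0.300, 0.162 and 0.280 CPM in Sxl RNAi, 2.87, 0.982 and 1.35 CPM in mCherry RNAi, and 4.86, 3.06 and 1.82 CPM in bam ovaries, and the 3 Sxl RNAi libraries were the lowest (-3.71, SE 0.49, adjusted p = 0.0083). Genes in these runs were chosen for their position after their values were seen, and some overlap, so reads near their ends cannot always be told apart.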

How the data were processed

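Polyadenylated RNA from dissected ovaries was made into libraries from 200 ng with an Illumina TruSeq RNA v2 kit, per the labels' protocols. The authors deposited whole-number read counts for each gene in every library. TopHat2 2.1.1, Bowtie2 2.2.9, HTSeq 0.9.1, DESeq and FastQC are named in the submitters' processing notes, with build BDGP6. The counter's strand and overlap settings and the annotation version were not among the labels used here. The 5 summary lines of each file, 12.05% to 17.1% of reads over the 12 libraries, entered neither library sizes nor tests.

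Groups came from the sample titles. Every pair of replicates differed beyond counting noise (chi-square per degree of freedom at least 9.32), so all were kept. Symbols and positions for 17253 of 17559 IDs came from Ensembl release 115 on BDGP6, which may differ from the annotation used for counting.

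The 6 libraries of a comparison entered an edgeR 4.0.16 fit (R 4.3.3; trimmed mean of M values, filterByExpr, robust quasi-likelihood F test). The threshold was a Benjamini-Hochberg adjusted p under 0.05 over all genes tested. The SE is the log2 fold change divided by the square root of F. CPM were scaled over all 12 libraries together. Alternatives were DESeq2 1.42.0, other scalings and filters, all 12 libraries in a fit, glmTreat, a block for replicate number, and fits without some libraries. Scripts were tested on simulated counts. Leaving out a library leaves 5 in the fit, in which the spread is pooled.

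Members and the 38 gene lists, of which 707 of 724 entries matched an ID, were chosen with earlier results of these data known. Named genes were Sxl, CG15930, Phf7, bam, msl-2 and tra; the 12 largest changes in each direction among called genes without overlap and with at least 5 CPM in the higher group; the 6 largest differences in CPM in each direction; and from each list, up to 3 genes of smallest p. Further called members of lists, and genes named in runs of neighbours, or given as the range of a list, were chosen after their values were seen.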

Additional observations from a re-analysis of the deposited data

How the results depend on the processing

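The number of genes called depended on the test and the libraries. DESeq2 called 679 higher and 481 lower, with 575 of the 578 among them. A test for a log2 fold change over 1 (glmTreat) called 46 higher and 34 lower. Leaving out a library gave 103 to 330 higher and 69 to 275 lower. Leaving out bam replicate 3 and Sxl RNAi replicate 1 together, a setting added after seeing the data, gave 1032 higher and 983 lower. Omitting the filter, filtering at 1 CPM, scaling by upper quartile or by relative log expression, or fitting all 12 libraries gave 319 to 373 higher and 232 to 254 lower. For Sxl, the log2 fold change was -1.37 to -1.04 when a library was left out. It was -1.22 under glmTreat (adjusted p = 1). No named gene that was called changed direction under these settings, whereas tra, otu, Trx2, betaTub85D, CG17239, Est-6 and Send1, none of them called, took both signs. Over named genes and settings, 1706 values stayed on their side of the threshold, 237 lost their call and 71 gained it. All 12 libraries in a fit ended the calls of CG43120 (adjusted p = 0.127), CG15394 (adjusted p = 0.107), mfas (adjusted p = 0.0968) and topi (adjusted p = 0.0734), among others. The cause of these changes was not tested. Fits that left out libraries also held fewer of them, and the part of that was not tested either.

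Replicate numbers did not pair the samples: the correlations of same-numbered deviations were -0.22, 0.10 and -0.25. With the numbers as a replicate block, 119 genes were higher and 81 lower, and Sxl had -1.23 (adjusted p = 0.0656). No Sxl RNAi library correlated best with the bam library of its own number.

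With 3 libraries per group, genes at a few CPM, such as roX1 and TrxT, rest on few reads per library, and the part of counting error in their calls was not tested.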
